A study of Homo sapiens with 12 samples.

Results

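The response of A549 monolayers to wounding alone was read from 6 of the 12 arrays of the series, 3 of wounded and 3 of control monolayers, which were chosen by their sample titles. A549 is an established human cell line from a lung adenocarcinoma and serves as a model of lung epithelium. The wounded monolayers had been wounded for 4 h and the control monolayers were untreated, and neither group had been heat shocked. The other 6 arrays held monolayers heat shocked for 2 h and monolayers heat shocked for 2 h and then wounded. They entered the estimate of the spread and a repeat of the comparison, given last. The labels used here do not say how the wounds were made or what share of the cells lay beside one, so each value is an average over a whole monolayer. In such bulk RNA, fewer cells of a kind and less RNA per cell cannot be told apart. The labels also do not say whether the 3 samples of a group were separate cultures, so the p-values measure the spread between these samples, which may be technical. The sample descriptions mark samples 1 and 2 of each group as S2 and sample 3 as S3, without saying what the mark means.

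When an epithelial sheet is wounded, cells at the edge lose contact with their neighbours, flatten and crawl into the gap. Mechanical strain, calcium, ATP and growth factors released at the edge switch on mitogen-activated protein kinases, which within minutes induce immediate early genes, mainly transcription factors of the AP-1, EGR and KLF families. These act on a second wave of genes for proteases, integrins, matrix and secreted factors with which the cells loosen, move over and rebuild their substrate. Signalling by transforming growth factor beta (TGF-β) and the related bone morphogenetic proteins (BMPs) bears on both migration and proliferation in lung epithelium.

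Levels below are log2 RMA values, differences are wounded minus control on that log2 scale, and ± stands for the SD of a group level (n = 3) and for the SE of a difference. A gene was called at a limma adjusted p under 0.05 over all genes. Of 18132 genes tested, 648 were called (3.57%), 411 higher (2.27%) and 237 lower (1.31%) in wounded monolayers. The 3 wounded arrays lay wholly above or below the 3 control arrays for each of the 648. The call rests on the same arrays and favours such genes, so this adds no support. Over all genes 7.97% had wounded arrays wholly above and 13.9% wholly below. A difference of at least 2-fold was seen for 57 called genes that were higher (0.314%) and 6 that were lower (0.0331%). Most calls were small, with 64.2% of them under 1.5-fold, a median difference of 0.55 among the 411 higher genes and of -0.42 among the 237 lower genes. The median over all genes was -0.03, and 62.2% of all genes had a difference below 0. The count depended on single arrays. It was 353, 386 and 425 without control samples 1, 2 and 3, and 324 and 306 without wounded samples 1 and 2. In all 6 fits that left out 1 of these arrays, 279 of the 648 genes were called, 214 higher and 65 lower. Genes named below passed in all 6 of them unless the text says otherwise. Those fits do not address the mark S2 that samples 1 and 2 share. With samples 1 and 2 of each group averaged, 221 of the 648 calls were kept. Of 147 genes named by rule, 49 lost their call then. Genes below that also lost it include IER5L, FHL2, BCL2L1, PKP2, MT2A and ZFP36L1. These are examples, and passing all 6 fits does not mean that a call was kept here. Called higher with averaging were 1 KANK and talin partner gene, 3 plasminogen and coagulation genes and 2 metalloproteinases, against 4, 6 and 3 without it. The endothelin list and the list with GADD45 and BTG genes each had 1, against 2.

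**Figure D1:**
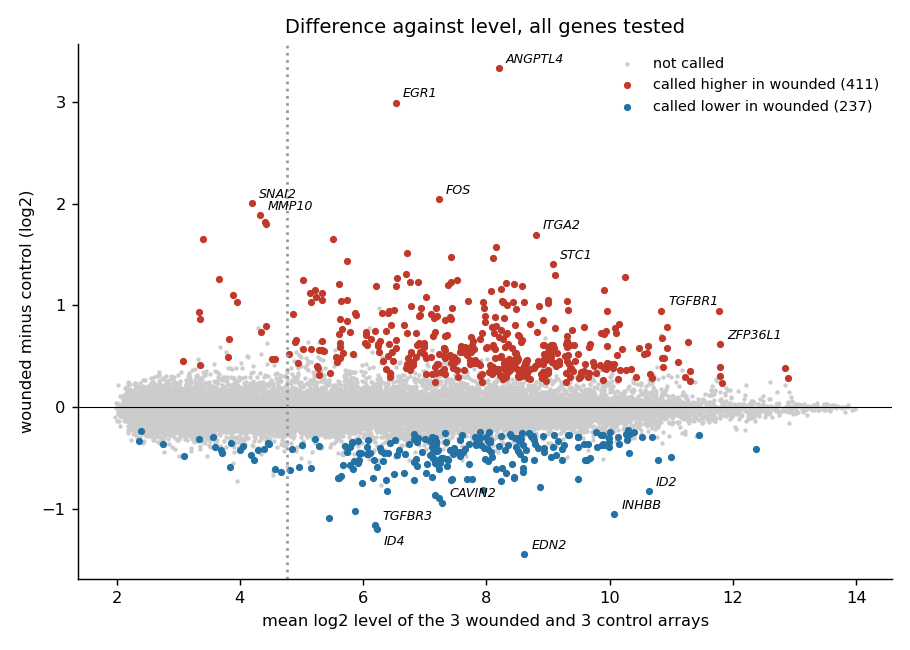
The difference between wounded and control arrays (log2, vertical axis) is plotted against the mean log2 level of the 6 arrays (horizontal axis) for each of the 18132 genes tested, with genes called higher and lower in colour and the others in grey. The 411 higher genes reach a difference of 3.33 (ANGPTL4) and the 237 lower genes -1.45 (EDN2).

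The cells carried several epithelial markers in both groups. Levels of KRT8 and KRT18, keratins of simple epithelia, averaged 13.15 and 13.79 in wounded monolayers and 13.23 and 13.83 in control monolayers, and EPCAM, an epithelial adhesion molecule, averaged 9.13 in each. Markers of other cells gave a rough floor, since no detection call was at hand. The upper quartile of the control levels of 22 endothelial and leukocyte markers was 4.77, the endothelial cadherin CDH5 stood at 3.62 in wounded and 3.45 in control arrays, and the leukocyte antigen PTPRC at 2.38 in wounded and 2.27 in control arrays. Fibroblast markers averaged 3.91 to 4.05 per wounded array and 3.91 to 4.12 per control array over the 10 measured. Some markers lay over 4.77 in the mean of either group, 2 of 10 endothelial, 4 of 12 leukocyte and 3 of 10 fibroblast ones. CD68 of leukocytes stood at 7.13 in wounded and 6.84 in control arrays, and PDGFRL of fibroblasts at 7.05 and 7.15. Of the epithelial markers, CLDN7 lay under 4.77, at 4.61 in wounded and 4.76 in control arrays. CLDN4 stood at 6.48 in wounded and 5.70 in control arrays and missed the limma threshold (adjusted p = 0.0986). Folds of genes that start or end under 4.77 are approximate, which applies to 31 of the higher and 24 of the lower genes. Surfactant genes of alveolar type II cells ranged from SFTPA1, at 2.31 in wounded and 2.26 in control arrays, to SFTPC, at 6.06 and 6.08. SFTPB stood at 5.27 in wounded and 5.26 in control arrays, beside a control median of 6.05 over all genes. NKX2-1, a lung lineage factor, stood at 4.91 in wounded and 4.78 in control arrays. Of other type II markers, LPCAT1 stood at 10.29 in wounded and 10.18 in control arrays. None of the 14 type II, 9 type I, 10 fibroblast, 10 endothelial, 12 leukocyte or 12 epithelial markers was called by limma. At an unadjusted p under 0.05 there were 1, 1, 1, 0, 1 and 5. The 12 markers listed as epithelial also held the mesenchymal markers CDH2 and VIM, so their counts are not of epithelial genes alone. HSPA6, an HSP70 gene switched on by heat whose probe set may also read a near-identical copy, averaged 4.61 ± 0.37 in wounded and 4.30 ± 0.19 in control monolayers and was not called (adjusted p = 0.703). Array medians of the 6 arrays lay between 5.31 and 5.32, and arrays within the wounded and the control group correlated at 0.998.

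Transcription factors of the immediate early response were among the largest rises. EGR1, a zinc finger factor induced by mitogens, strain and injury, had levels of 7.84, 8.09 and 8.13 in wounded monolayers against 5.32, 5.01 and 4.76 in control monolayers. The gap between the groups was far wider than the scatter within either of them. EGR1 thus rose by 2.99 ± 0.27 (7.94-fold; adjusted p = 8.19e-05). FOS, a leucine zipper subunit of AP-1, had levels of 8.14, 8.36 and 8.24 in wounded monolayers against 6.16, 6.20 and 6.25 in control monolayers, a rise of 2.04 ± 0.15. JUN, its main partner, had 9.82, 9.81 and 9.63 in wounded monolayers against 8.44, 8.45 and 8.47 in control monolayers, a rise of 1.30 ± 0.13. In each of these genes all wounded arrays were high and all control arrays low.

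Within the AP-1 family, 4 of 14 measured genes rose and none fell, beside 2.27% of all genes higher and 1.31% lower, and the count was 4 in every fit that left out 1 array. The others were ATF3, a stress-induced member, by 1.23 ± 0.12, and JUNB by 1.04 ± 0.12. Other probe sets of ATF3 differed by 0.78, 0.78 and 0.95 (called), and by 0.03, 0.05 and 0.04 (not called). FOSL1 averaged 7.69 in wounded and 7.23 in control monolayers and missed the threshold (adjusted p = 0.0557), while FOSB averaged 6.23 in wounded and 6.19 in control monolayers (adjusted p = 0.891). The median of the family was 0.05. Among 16 EGR, NR4A and other early response genes, 5 rose and 1 fell, with a median of 0.12. NR4A2, an orphan nuclear receptor, rose by 0.73 ± 0.13 and IER2 by 0.46 ± 0.07, whereas IER5L, a relative of the early gene IER5, fell by 0.60. CSRNP1 and IER3 differed by 0.65 and 0.60, and their calls were lost in some of the fits, so that 3 members were called higher without control sample 1 or 2 or wounded sample 2.

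Krüppel-like factors, zinc finger proteins that steer epithelial growth and differentiation, had 4 of 13 members higher, and each call held without any single array. KLF7 averaged 9.18 ± 0.07 in wounded monolayers and 7.99 ± 0.02 in control monolayers, a rise of 1.19 ± 0.08. KLF6 rose by 1.04 ± 0.10, KLF2 by 0.67 ± 0.12 and KLF4 by 0.62 ± 0.10. The family median was 0.17, against -0.03 over all genes. Of 17 ETS factors, many of which are targets of the ERK kinases, 4 rose and 1 fell. ETS2 rose by 1.05 ± 0.09 and ELK3, which binds together with serum response factor, by 0.94 ± 0.08. ETS1 differed by 0.74 and was called in 2 of the 6 fits. EHF, an ETS factor of epithelial cells, fell by 0.89 ± 0.17 and was called in 3 of the 6. SNAI2, the zinc finger repressor Slug of epithelial plasticity, had levels of 5.24, 5.55 and 4.81 in wounded monolayers against 3.39, 3.11 and 3.09 in control monolayers, a rise of 2.01 ± 0.21 that is approximate because control lay under 4.77. It was 1 of 18 mesenchymal transition factors and markers to pass, while CDH1 (E-cadherin) averaged 9.77 in wounded and 9.90 in control monolayers and VIM (vimentin) 12.95 in wounded and 12.74 in control monolayers, neither called.

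Promoter sequences from RefSeq (GRCh38) are shown for 3 of the 20 largest rises whose window of 250 bases before to 50 bases after the start held a match to a motif of a factor known to act in wounded epithelium. Motifs were searched on both strands, and matches are in capitals. The EGR1 window (chr5:138465229-138465528, plus strand) held 2 CArG boxes, the sites that serum response factor is known to bind, the MMP10 window (chr11:102780579-102780878, minus strand) held 1 AP-1 motif of the form TGANTCA, and the CCN2 window (chr6:131951323-131951622, minus strand) held 3 TEAD motifs, GGAATG. CCN2 was added to show the TEAD motif after matches had been seen. The window of ULK1 held 1 TEAD motif and is not shown. Of the 20 largest rises, 15 had a promoter entry. Among these, the AP-1 motif stood in 1, the CArG box in 1 and the TEAD motif in 2, so most held none of them. MMP1, SNAI2, ARL14, GEM and STC1 had no entry.
EGR1: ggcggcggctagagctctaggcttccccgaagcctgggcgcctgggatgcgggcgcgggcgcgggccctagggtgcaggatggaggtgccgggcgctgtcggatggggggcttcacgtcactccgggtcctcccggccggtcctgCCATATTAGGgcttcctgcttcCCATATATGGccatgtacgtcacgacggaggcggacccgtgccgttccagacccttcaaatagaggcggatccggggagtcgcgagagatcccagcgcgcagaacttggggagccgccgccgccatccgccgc
MMP10: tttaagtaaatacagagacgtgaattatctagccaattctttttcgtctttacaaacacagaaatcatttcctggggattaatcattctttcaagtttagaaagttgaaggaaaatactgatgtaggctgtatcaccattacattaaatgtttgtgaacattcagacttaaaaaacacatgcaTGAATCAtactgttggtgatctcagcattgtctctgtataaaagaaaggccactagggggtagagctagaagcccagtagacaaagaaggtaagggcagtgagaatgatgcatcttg
CCN2: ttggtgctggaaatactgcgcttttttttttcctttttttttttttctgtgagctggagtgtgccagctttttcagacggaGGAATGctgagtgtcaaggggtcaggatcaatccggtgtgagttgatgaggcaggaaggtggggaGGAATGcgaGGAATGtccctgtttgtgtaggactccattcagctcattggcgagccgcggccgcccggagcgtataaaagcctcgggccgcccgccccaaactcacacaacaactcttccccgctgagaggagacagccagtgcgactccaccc
The AP-1 motif stood in 28 of 335 promoters of higher genes with an entry (8.36%), in 7 of 200 of lower genes (3.5%) and in 875 of 14425 of all tested genes (6.07%). The cyclic AMP response element TGACGTCA stood in 3.88%, 5.5% and 2.59% of the same groups, GGAATG in 11.9%, 12.5% and 11.8%, and the CArG box in 1.49%, 0.5% and 1.27%. These shares are descriptions of the letters in the windows, and no difference between them was tested.

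ANGPTL4, which encodes a secreted inhibitor of lipoprotein lipase that also binds matrix, showed the largest difference of any gene tested. Its levels were 9.99, 10.12 and 9.47 in wounded monolayers against 6.44, 6.61 and 6.54 in control monolayers, with wounded sample 3 the lowest of its group yet far above every control. The rise was 3.33 ± 0.18 (adjusted p = 4.76e-06). None of the other 23 measured PPAR-linked lipid genes in its list was called. Among 26 glycolysis and hypoxia-induced genes 3 rose, led by PFKFB4, a regulator of glycolytic flux, at 0.92 ± 0.13 and KDM3A, a histone demethylase, at 0.57 ± 0.07. The other probe sets of PFKFB4 differed by 0.21, 0.06 and 0.03, none called. NDRG1 differed by 0.42 and was called in 4 of the 6 fits. VEGFA, a standard hypoxia target, averaged 9.96 in wounded and 9.64 in control monolayers and was not called (adjusted p = 0.459).

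**Figure D2:**
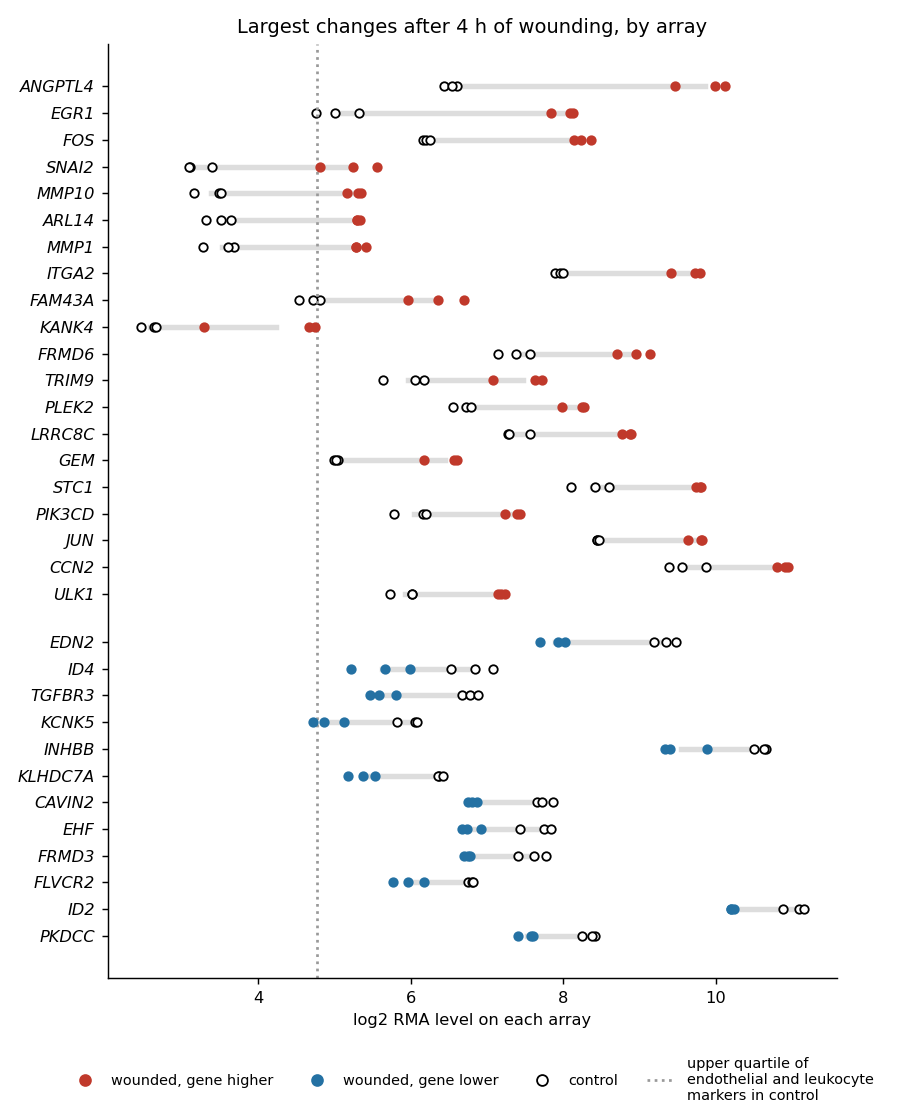
Each row is 1 of the 20 genes with the largest rise (top) or the 12 with the largest fall (bottom), and each point is the log2 RMA level (horizontal axis) of 1 of the 3 wounded or 3 control arrays. The rows were drawn from called genes whose wounded and control arrays do not overlap, so none of them shows overlap. The wounded points of KANK4 range from 3.29 to 4.74, and the lowest of them lies nearer to the control points than to the other wounded points.

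Genes of adhesion and movement followed. ITGA2, the integrin subunit with which cells bind collagen, had levels of 9.73, 9.80 and 9.41 in wounded monolayers against 7.89, 7.96 and 7.99 in control monolayers, a rise of 1.70 ± 0.11. It was 1 of 2 of the 20 measured integrin subunits to rise. The other, ITGA5 of the fibronectin receptor, differed by 0.54 and was called in 1 of the 6 fits. Of 12 KANK and talin partner genes, which link integrins to actin, 4 rose. FERMT1 (kindlin-1), an integrin activator, rose by 0.78 ± 0.12 and PXN (paxillin), a focal adhesion scaffold, by 0.52 ± 0.08. KANK4 had levels of 4.74, 4.67 and 3.29 in wounded monolayers against 2.46, 2.64 and 2.66 in control monolayers, and its call rested on few arrays, since it held in 3 of the 6 fits. The list count was 2 without control sample 1 or wounded sample 1 or 2. The talin genes TLN1 and TLN2 were not called (adjusted p = 0.756 and 0.891), nor were KANK1 and KANK2 (0.891 and 0.966). SDC4, a heparan sulphate proteoglycan of focal adhesions, rose by 0.59 ± 0.08.

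Other large rises touched the actin cytoskeleton and its links. PLEK2 (pleckstrin 2), an actin-associated lipid-binding protein, had 8.25, 8.28 and 7.98 in wounded monolayers against 6.55, 6.72 and 6.79 in control monolayers. DAAM1, a formin that lengthens actin filaments, rose by 1.23 ± 0.15, GEM, a small GTP-binding protein, by 1.43 ± 0.19 and FRMD6, a FERM domain protein of the Hippo pathway, by 1.57 ± 0.14.

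Targets of YAP/TAZ and of SRF are both read-outs of mechanical state. The YAP/TAZ list had 13.0% of its members higher and the SRF and actin list 4.35%, beside 2.27% of all genes. Of 23 YAP/TAZ factors and targets 3 rose and 1 fell. CCN2, a matricellular protein whose promoter is printed above, had levels of 10.90, 10.95 and 10.80 in wounded monolayers against 9.56, 9.39 and 9.87 in control monolayers, a rise of 1.28 ± 0.13. CCN1, its relative, rose by 0.72 ± 0.12 and NT5E (CD73), which makes adenosine from AMP, by 0.72 ± 0.09. AJUBA, a LIM protein that restrains Hippo signalling, fell by 0.79. ANKRD1, another common target, averaged 5.12 in wounded and 5.52 in control monolayers and was not called (95% interval of the difference -1.11 to 0.31). VGLL3, a TEAD cofactor outside this list, rose by 1.21 ± 0.16. Of 23 SRF targets and actin genes 1 rose, FHL2 by 0.52, and SRF itself differed by 0.02 (95% interval -0.13 to 0.18). This list leaves out EGR1, whose promoter window held CArG boxes, and FOS, which were counted with the early response and AP-1 genes. MYOCD, which encodes the SRF coactivator myocardin, rose by 0.97 ± 0.10.

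Genes for some extracellular proteases and their regulators rose. MMP10 (stromelysin 2) had levels of 5.34, 5.31 and 5.16 in wounded monolayers against 3.48, 3.16 and 3.51 in control monolayers. MMP1, the collagenase of migrating epithelium, had 5.41, 5.28 and 5.28 in wounded monolayers against 3.68, 3.27 and 3.61 in control monolayers. Both lay under 4.77 in control monolayers, so their rises of 1.89 ± 0.19 and 1.80 ± 0.18 are approximate. ADAM19, a membrane-bound sheddase, rose by 0.80 ± 0.14, whereas its other probe sets differed by 0.03, -0.12 and -0.20, none called. MMP24 differed by -0.46 and was called in 1 of the 6 fits, which left 3 of 32 metalloproteinases and TIMPs higher and 1 lower. Of 15 genes of plasminogen activation and coagulation 6 rose and none fell, with a median of 0.24. F3 (tissue factor), which starts coagulation, rose by 1.16 ± 0.18, the protease inhibitor SERPINE2 by 0.73 ± 0.08, the urokinase receptor PLAUR by 0.52 ± 0.08 and SERPINB8 by 0.42 ± 0.07. F2R and TFPI2 differed by 0.41 and 0.24 and lost their calls in the fits, so that 4 members were called higher without each of the 6 arrays in turn.

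Matrix genes rose in part. Of 25 basement membrane and hyaluronan genes 6 rose and none fell. LAMB3, a chain of laminin-332 on which epithelium migrates, had levels of 7.69, 7.66 and 7.55 in wounded monolayers against 6.76, 6.91 and 6.56 in control monolayers, a rise of 0.89 ± 0.10. Its other probe set differed by 0.19 and was not called. COL4A1 of the type IV collagen sheet rose by 0.75 ± 0.09, COL7A1 of anchoring fibrils by 0.62 ± 0.10 and HAS2, a hyaluronan synthase, by 0.85 ± 0.11. HAS3 and COL4A2 differed by 0.42 and 0.37 and lost their calls in some fits, so that 4 members were called without control sample 2 or wounded sample 1 or 2. Of 29 interstitial matrix and crosslinking genes, THBS1, COL5A1 and PLOD2 differed by 0.45, 0.43 and 0.26. None of these 3 calls held without control sample 1 or 3 or wounded sample 1 or 2, and 1 held without control sample 2.

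**Figure D3:**
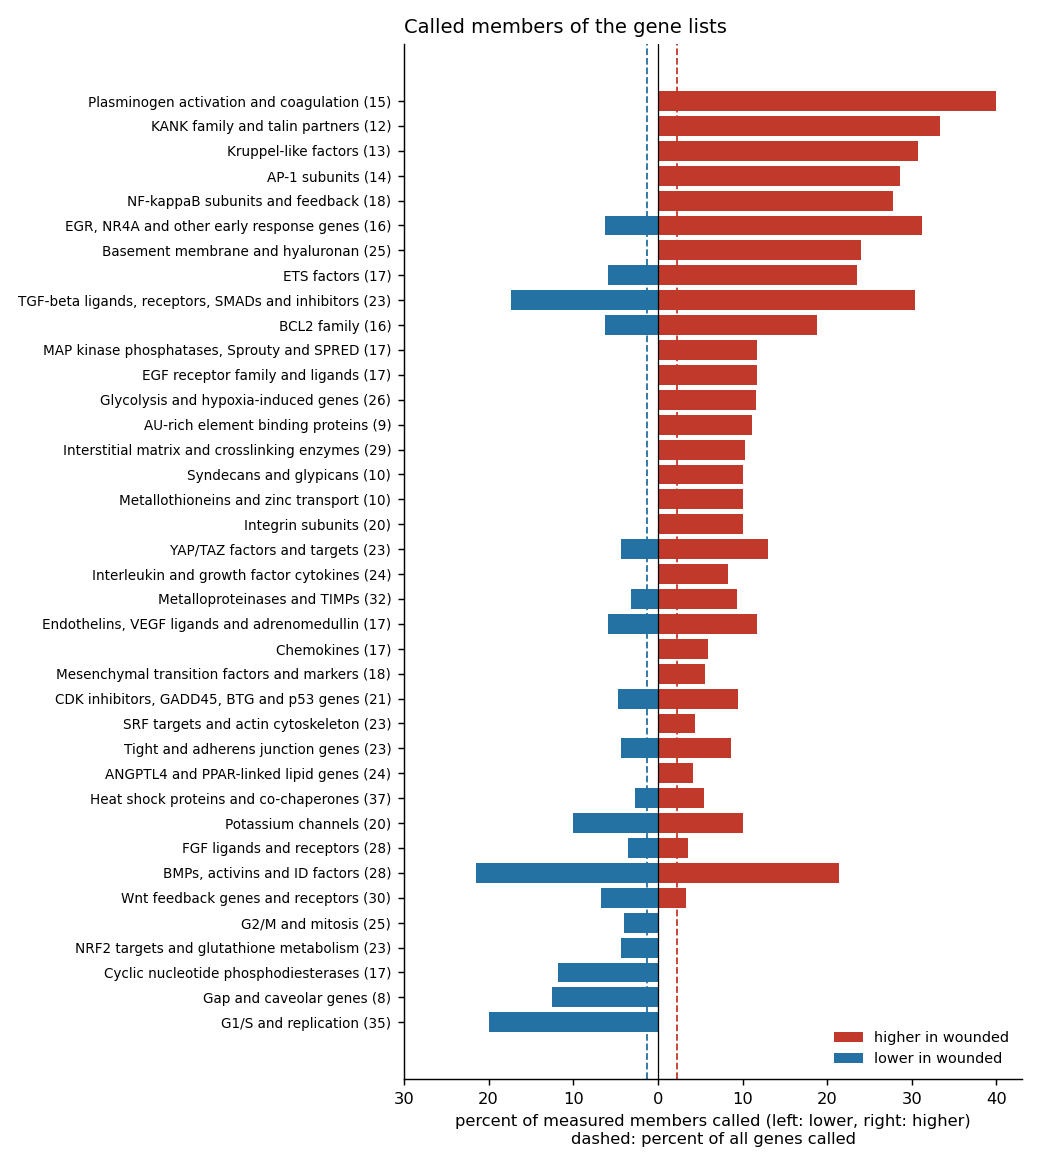
Bars give the percent of measured members (number in brackets) of the gene lists reported here with at least 1 called member that were called higher (to the right) or lower (to the left) in wounded monolayers, with dashed lines at the percent of all genes called, 2.27% higher and 1.31% lower. Plasminogen and coagulation genes have 40% of members higher, and genes of the G1/S phase have 20% lower.

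TGF-β pathway genes moved in both directions. Among receptors, TGFBR1, the kinase that phosphorylates SMAD2 and SMAD3, had levels of 11.37, 11.41 and 11.13 in wounded monolayers against 10.29, 10.30 and 10.48 in control monolayers, a rise of 0.95 ± 0.09. TGFBR3 (betaglycan), a co-receptor that presents ligand, went the other way, with 5.46, 5.58 and 5.81 in wounded monolayers against 6.67, 6.77 and 6.89 in control monolayers, and fell by 1.16. The ligand genes TGFB1, TGFB2 and TGFB3 were not called, with differences of 0.13, 0.08 and 0.06, and the 95% interval for TGFB1 was -0.16 to 0.42. Inhibitors of the pathway were among the rises. PMEPA1, which sequesters receptor-regulated SMADs, had 12.27, 12.31 and 12.13 in wounded monolayers against 11.26, 11.33 and 11.30 in control monolayers, and the ubiquitin ligases SMURF2 and SMURF1 rose by 0.73 ± 0.09 and 0.51 ± 0.06. The corepressor genes SKIL and SKI differed by 1.03 and 0.51. The call of SKIL was lost without wounded sample 2 (adjusted p = 0.0502), and that of SKI in each of the 6 fits. SMAD7, an inhibitory SMAD, averaged 7.82 in wounded and 7.63 in control monolayers and was not called (adjusted p = 0.526). In all, 7 of 23 members were higher and 4 lower, with a median of 0.13. Without single arrays 5 or 6 were called higher and 1 to 3 lower, 1 without control sample 2 or wounded sample 2 and 2 without control sample 3 or wounded sample 1. SMAD2, TGIF2 and TGFBR2, at -0.39, -0.36 and -0.33, were the lower members whose calls were lost.

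BMP, activin and ID genes also moved both ways, with 6 of 28 members higher, 6 lower and a median of 0.01. BMPR2, the type II receptor of BMPs, had levels of 9.04, 8.97 and 8.83 in wounded monolayers against 7.90, 7.96 and 7.87 in control monolayers, a rise of 1.04 ± 0.08, and the type I receptor ACVR1 rose by 0.81 ± 0.12. The ligands BMP6 and BMP2 rose by 0.99 ± 0.13 and 0.74 ± 0.12, whereas BMP4 differed by -0.51 and was called in 5 of the 6 fits. The activin subunits moved apart. INHBA rose by 0.55 ± 0.10, while INHBB had 9.40, 9.34 and 9.89 in wounded monolayers against 10.50, 10.66 and 10.64 in control monolayers and fell by 1.05. FST (follistatin), a secreted activin inhibitor, rose by 0.75 ± 0.08. The ID genes, classic BMP targets that block helix-loop-helix factors, were lower where they were called. ID2 had 10.24, 10.20 and 10.21 in wounded monolayers against 11.10, 11.16 and 10.88 in control monolayers and fell by 0.83. ID4 and ID1 differed by -1.20 and -0.41 and were called in 2 and 1 of the 6 fits, and ID3 averaged 11.93 in wounded and 12.02 in control monolayers without a call. The count of lower members was 3 without control sample 1 or 2 or wounded sample 2 or 3, and 4 without wounded sample 1.

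**Figure D4:**
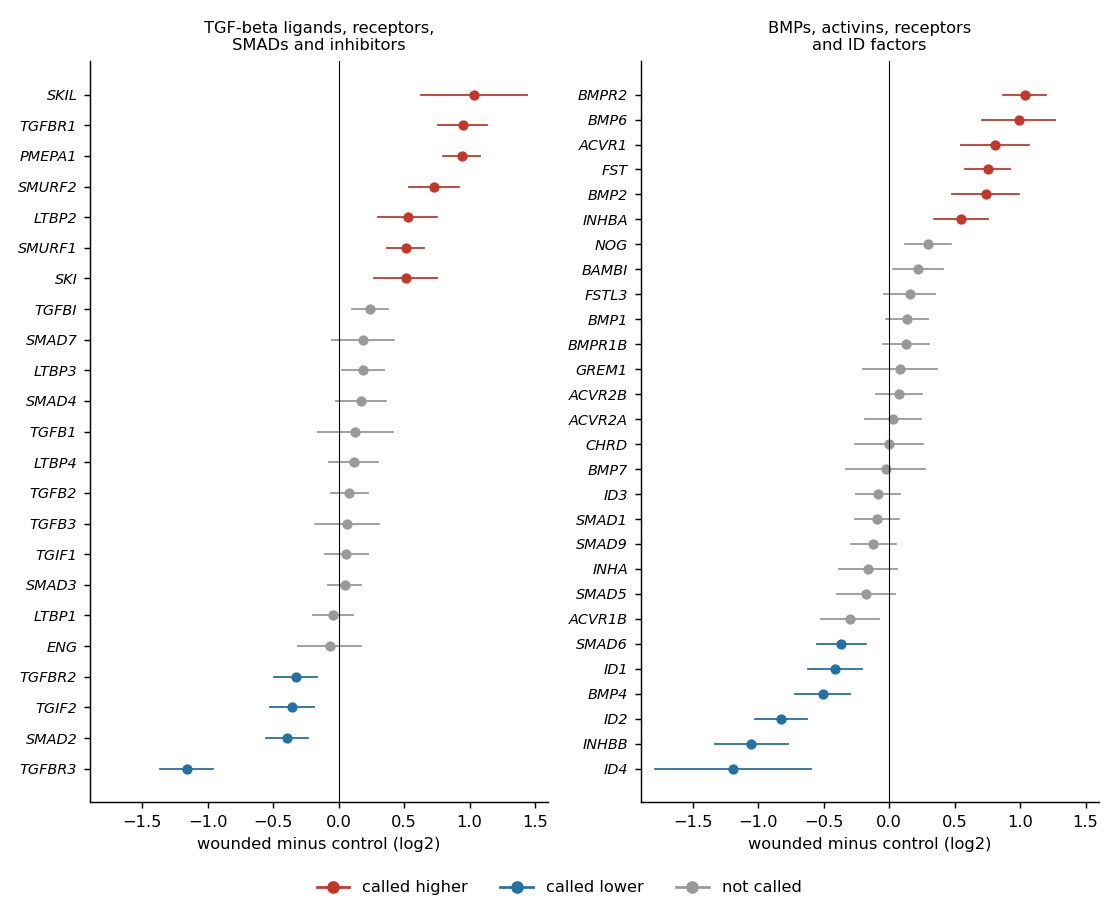
Points give the difference wounded minus control (log2, horizontal axis) for each measured gene of the TGF-β list and of the BMP, activin and ID list, with bars for the 95% interval and colours for genes called higher, called lower or not called. TGFBR1 (0.95) and BMPR2 (1.04) stand at the right, and TGFBR3 (-1.16) and ID4 (-1.20) at the left.

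Growth factor and cytokine genes changed in few members. FGF2, a broadly acting fibroblast growth factor, had levels of 8.81, 8.98 and 8.53 in wounded monolayers against 7.72, 7.76 and 7.72 in control monolayers. It rose by 1.04 ± 0.11, and FGFR3 fell by 0.72, 1 gene in each direction of 28 FGF ligands and receptors. The other probe set of FGFR3 differed by -0.33 and was not called. FGF1, which the title of the series names, had 3.57, 3.72 and 3.45 in wounded monolayers against 3.25, 3.38 and 3.40 in control monolayers and was not called (adjusted p = 0.42). All 6 of its levels lay under 4.77. EGFR and ADAM17, which sheds EGF receptor ligands, differed by 0.53 and 0.30 as the 2 called of 17 EGF family genes, and neither was called without control sample 1, with 1 called without wounded sample 1 or 2. The direction of ADAM17 turned with its most variable probe set (-0.27, not called). HBEGF, a ligand of EGFR, averaged 7.51 in wounded and 7.31 in control monolayers (adjusted p = 0.549). DUSP6 and SPRED1, feedback inhibitors of ERK signalling, differed by 0.61 and 0.38 among 17 such genes, and neither call held without control sample 1 or 2 or wounded sample 1 or 2, with 1 left without control sample 3 or wounded sample 3. The direction of SPRED1 turned with its most variable probe set (-0.13, not called).

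Of 24 interleukin and growth factor cytokine genes 2 rose. IL11, a cytokine of the IL-6 family, rose by 0.88 ± 0.13 and the receptor gene IL4R by 0.60 ± 0.08. The other probe sets of IL4R differed by 0.23, 0.27, 0.28 and 0.25, none called. Of 17 chemokines 1 rose, CCL2, which attracts monocytes, by 0.64 ± 0.11. CXCL8, the neutrophil chemokine IL-8, averaged 11.18 ± 0.16 in wounded monolayers and 10.47 ± 0.08 in control monolayers. Its groups did not overlap, yet its difference of 0.71 ± 0.19 missed the threshold (adjusted p = 0.0767). IL6 averaged 4.69 in wounded and 4.61 in control monolayers. Among 18 NF-κB subunits and feedback genes 5 were higher and none lower, with a median of 0.21. NFKB1, the p105/p50 subunit, rose by 0.61 ± 0.07, with 9.33, 9.42 and 9.33 in wounded monolayers against 8.72, 8.74 and 8.79 in control monolayers. TNFAIP3 (A20), TRAF1, NFKBIZ and BIRC2 differed by 0.84, 0.63, 0.47 and 0.30. The list count fell to 2 without control sample 1 or 3 or wounded sample 3, and to 1 without control sample 2 or wounded sample 1 or 2. NFKBIA, a standard feedback target, averaged 10.23 in wounded and 10.17 in control monolayers (adjusted p = 0.911). IRAK2, a kinase of interleukin 1 receptor signalling, rose by 1.03 ± 0.16.

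Endothelin genes moved in opposite directions. EDN2 had levels of 7.93, 7.70 and 8.03 in wounded monolayers against 9.48, 9.19 and 9.35 in control monolayers, and its fall by 1.45 was the largest of any called gene. EDN1, which encodes endothelin 1, rose by 0.44 ± 0.07, with 9.88, 10.01 and 9.98 in wounded monolayers against 9.48, 9.53 and 9.53 in control monolayers. ECE1, the enzyme that cuts the precursors of both peptides, rose by 0.39 ± 0.07. These were the 3 called genes of 17 endothelin, VEGF and adrenomedullin genes.

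Potassium channel genes had 2 of 20 members higher and 2 lower. KCNMA1, the large-conductance calcium-activated channel, had 7.99, 7.99 and 7.95 in wounded monolayers against 6.78, 6.73 and 6.83 in control monolayers, a rise of 1.20 ± 0.11. Its other probe sets differed by 0.67 (called), and by 0.02, -0.12, -0.14 and -0.21 (not called). KCNN4, the intermediate-conductance calcium-activated channel, rose by 0.57 ± 0.07. KCNK5, a pH-sensitive leak channel, had 4.71, 4.86 and 5.12 in wounded monolayers against 5.82, 6.06 and 6.08 in control monolayers and fell by 1.09. Its other probe set differed by -0.20 and was not called. KCNJ2, an inward rectifier, differed by -0.57 and was called lower without wounded sample 3, and not without the other 5 arrays. LRRC8C, a subunit of volume-regulated anion channels, rose by 1.46 ± 0.10. Among genes in no list, P2RY2, a receptor for ATP, rose by 0.90 ± 0.10, HRH1, a histamine receptor, by 0.89 ± 0.15, S1PR5, a receptor for sphingosine 1-phosphate, by 1.03 ± 0.18 and SPHK1, which makes that lipid, by 0.90 ± 0.13. These 4 were picked after their values were seen and do not stand for a group.

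Further genes among the 20 largest rises had no list of their own. ARL14, a small GTPase of vesicle transport, had 5.30, 5.30 and 5.34 in wounded monolayers against 3.51, 3.32 and 3.64 in control monolayers. STC1 (stanniocalcin 1), a secreted glycoprotein, rose by 1.41 ± 0.11, FAM43A by 1.65 ± 0.19, the ubiquitin ligase TRIM9 by 1.51 ± 0.21 and PIK3CD, a catalytic PI3 kinase subunit, by 1.31 ± 0.14. The other probe sets of PIK3CD differed by 0.38, 0.10 and -0.09, none called. ULK1, the kinase that starts autophagy, had 7.23, 7.15 and 7.19 in wounded monolayers against 6.02, 5.73 and 6.02 in control monolayers. GABARAPL1, of the autophagosome, rose by 0.59 ± 0.09 and FBXO32 (atrogin-1), a ubiquitin ligase of protein breakdown, by 1.25 ± 0.10, both named after their values were seen. Among the 12 largest falls, KLHDC7A fell by 1.03, CAVIN2, which shapes caveolae, by 0.94, FRMD3 by 0.86, FLVCR2 by 0.83 and PKDCC, a secreted kinase, by 0.82. Wnt feedback and receptor genes had 2 of 30 members lower and 1 higher. LGR4, the R-spondin receptor, fell by 0.60 and ZNRF3, a ligase that clears Wnt receptors, by 0.61. The other probe set of LGR4 differed by -0.13 and was not called. AXIN2, a standard Wnt target, averaged 6.76 in each group.

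Genes of the G1/S transition and DNA replication lay below control in every measured member. All 35 measured members had a difference below 0, from -0.66 to -0.04, with a median of -0.22 against -0.03 over all genes, of which 62.2% were below 0. MCM10, a replication initiation factor, had levels of 8.30, 8.28 and 8.45 in wounded monolayers against 8.87, 8.77 and 8.94 in control monolayers and fell by 0.52. The other probe sets of MCM10 differed by -0.27 and -0.29, neither called. Another 6 members were called lower, E2F2 at -0.66, CDC25A at -0.52, CDC6 at -0.45, CDT1 at -0.40, CCNE1 at -0.37 and GINS1 at -0.25. Each of these 6 lost its call in at least 1 fit. The other probe set of E2F2 went the other way, at 0.20, and was not called. The list count was 3, 4 and 2 without control samples 1, 2 and 3, and 1, 2 and 9 without wounded samples 1, 2 and 3. Cyclic loess scaling gave 4, and averaging samples 1 and 2 of each group gave 1. PCNA, the replication clamp, averaged 12.29 in wounded and 12.43 in control monolayers, and CCND1 (cyclin D1) 11.37 in wounded and 11.40 in control monolayers, neither called. Of 25 G2/M genes, CDC25B was called, at -0.36, and it was called in 1 of the 6 fits. Among antiproliferative genes BTG1 rose by 0.68 ± 0.08 and GADD45B by 0.53 ± 0.10, while TOB1 fell by 0.52, so that 2 of 21 rose and 1 fell.

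The BCL2 family, which sets the threshold of apoptosis, had 3 of 16 members higher and 1 lower. The survival gene MCL1 had 11.36, 11.34 and 11.25 in wounded monolayers against 10.48, 10.58 and 10.54 in control monolayers, a rise of 0.78 ± 0.06. Other probe sets of MCL1 differed by 0.84, 1.15 and 1.04 (called), and by -0.06 and 0.05 (not called). BCL2L1, which encodes the related survival protein BCL-XL, fell by 0.52. Its other probe sets differed by -0.20 and -0.23, neither called. BCL2A1 and the proapoptotic BCL2L11 (BIM) differed by 0.58 and 0.43 and were each called in 2 of the 6 fits, so that 1 member was called higher without control sample 1 or wounded sample 1 or 2, and 2 without control sample 2 or 3.

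Several programmes showed no or few calls. Limma called none of 24 genes of the unfolded protein and integrated stress response, 23 ribosomal proteins, 17 cholesterol genes, 14 prostaglandin genes or 10 keratins, with 4, 0, 1, 1 and 1 at an unadjusted p under 0.05. Among 37 heat shock proteins and co-chaperones, DNAJB2, HSPB8 and BAG2 differed by 0.32, 0.30 and -0.29. At most 1 of these 3 calls was left in any fit that left out 1 array, and 0 without control sample 2 or 3 or wounded sample 1 or 2. The list median was -0.01. Of 23 NRF2 target and glutathione genes, the list's 1 call was NFE2L2, which encodes NRF2 itself, at -0.30, and it lost its call in each of the 6 fits. Of 17 phosphodiesterases, PDE7B and PDE7A, which break down cyclic AMP, differed by -0.65 and -0.44, and neither was called without control sample 1 or 2 or wounded sample 1 or 2, with 1 left without control sample 3 or wounded sample 3. Of 23 junction genes, PKP2 (plakophilin 2) fell by 0.60, while DSC2 and CLDN12 differed by 0.56 and 0.42 and were called in 0 and 1 of the 6 fits. MT2A, a metallothionein, rose by 0.38 ± 0.06 as 1 of 10, and ZFP36L1, which destabilises mRNAs with AU-rich elements, by 0.62 ± 0.09 as 1 of 9. PTGS2, the inducible cyclooxygenase, averaged 11.35 in wounded and 10.98 in control monolayers (adjusted p = 0.188).

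The wounded arrays differed among themselves in the size of the response. Wounded sample 3, the one marked S3, had the lowest of the 3 wounded levels for 47 of the 57 genes that rose at least 2-fold, and for 273 of all 411 higher genes. Over all genes it was the lowest of the 3 for 36.6%. For the 57 genes, the mean of wounded samples 1 and 2 exceeded sample 3 by a median of 0.23, against a median rise of 1.21. Sample 3 was the highest of the wounded arrays for 142 of the 237 lower genes. What set it apart was not tested. Without it 589 genes were called and 72 reached at least 2-fold, and without wounded sample 1 or 2 the number that reached 2-fold was 49 in each case.

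The arrays outside this comparison allowed the same 4 h wounding to be read again in monolayers that had first been heat shocked for 2 h, as heat shocked and wounded minus heat shocked. The comparisons share no array, though they share the estimate of spread. Of the 648 genes, 627 had the same sign there (96.8%), against 57.5% of genes not called, and all 63 genes with at least 2-fold did so. In that second comparison 779 genes were called (4.3%), and 368 of them were among the 648 in the same direction, which is 56.8% of the calls after wounding alone and 47.2% of the calls after heat shock. None was called in the opposite direction. Median differences there were 0.45 for the 411 higher genes and -0.30 for the 237 lower genes, and 188 of the 648 genes were larger in size than after wounding alone. In heat shocked monolayers wounding raised ANGPTL4 by 2.79 ± 0.18, EGR1 by 1.96 ± 0.27, MMP1 by 2.36 ± 0.18 and ITGA2 by 1.61 ± 0.11, and EDN2 fell by 1.11. KCNK5 and NR4A2 were not called there, with differences of -0.29 ± 0.15 and 0.04 ± 0.13, yet for neither did the difference between both responses pass (interaction adjusted p = 0.51 and 0.553).

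The difference between both wound responses was tested as an interaction, and 1 gene passed (0.00552%). FGF1 had levels of 5.28, 5.55 and 5.59 in heat shocked and wounded monolayers against 3.67, 3.80 and 3.39 in heat shocked monolayers, a difference of 1.85 ± 0.12, whereas after wounding alone the difference was 0.24 ± 0.12. The interaction was 1.62 ± 0.16 (adjusted p = 0.00623). It was not called with samples 1 and 2 of each group averaged (adjusted p = 0.0675) or with the mean over its probe sets (adjusted p = 0.137). For the other genes the wound response after heat shock is not shown to equal that without it, as 1302 genes, 151 of them among the 648, had an unadjusted interaction p under 0.05.

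**Figure D5:**
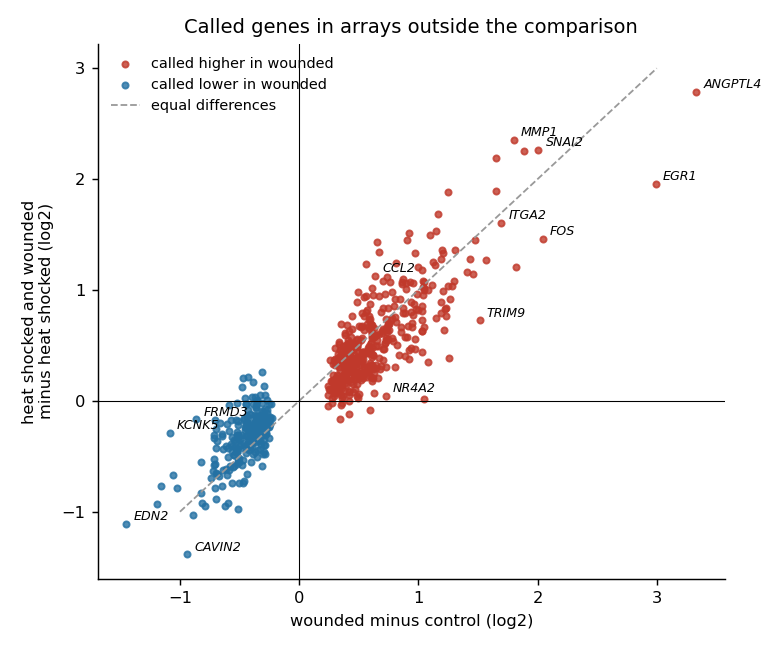
Each point is 1 of the 648 called genes, placed by its difference after wounding alone (horizontal axis, log2) and by its difference after wounding of heat shocked monolayers (vertical axis, log2), with a dashed line where both are equal. Of the 648 genes, 627 lie in the upper right or lower left quadrant.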

How the data were processed

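RNA of A549 monolayers was read on 12 Affymetrix PrimeView arrays, 3 in each of 4 groups, from 100 ng of total RNA each with a 3' in vitro transcription kit, as the labels' protocols state. Per the submitters' processing notes, the authors ran RMA in Affymetrix Expression Console, and they deposited log2 levels, 1 per probe set. The method corrects background, brings all arrays to 1 distribution and summarises probes, so equal array medians follow from it. The program's version is not given in the sources used here, and scanner files were not used here.

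Of 49293 probe sets, 1 with a missing value was left out. Platform annotation gave 1 symbol to 44988, several to 1832, and did not list 2473; 44961 matched the RefSeq table (GRCh38.p14) by gene identifier, and 0 symbols changed. A gene with several probe sets was represented by the one brightest on average across the 12 arrays, without regard to group. For called genes, 1084 of 1189 other probe sets had the same sign, 394 were called the same way and 0 the opposite way. Other probe sets are given above for part of the named genes only. Where none are given, other probe sets of a gene may not have been called.

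Differences were tested with limma 3.58.1 in R 4.3.3 (lmFit with 1 mean per group over 12 arrays, eBayes, 8 residual degrees of freedom) and Benjamini-Hochberg adjustment over 18132 genes. Every adjusted p comes from limma, which was tested on simulated data first. The simulated noise was independent between arrays, so that test cannot speak to the mark S2 that samples 1 and 2 share. The number of arrays limits the precision. Whether sample numbers pair the arrays is not known, and no block was used in the main fit. Deviations from the group means correlated at -0.11 to 0.10 for wounded and control arrays with the same number. Over all 4 groups the range was -0.19 to 0.23 for the same number and -0.19 to 0.24 for different numbers. So few arrays cannot settle the pairing. The 50 gene lists, the tests and the members were chosen with earlier results of these data known, and lists are described by counts and medians without a test. The naming rule took the 20 largest rises and the 12 largest falls among called genes without overlap between the groups. Up to 4 called members of each list were taken too. It also took the genes with the smallest interaction p and a fixed set of genes. That set held genes with large rises here, such as ANGPTL4, EGR1 and FOS, beside reference genes such as GAPDH and ACTB. Members and comparison genes named beyond this rule were chosen after their values were seen. List genes without a probe set of their own were not analysed here, and 1 of the lists is not reported here. Alternatives were another sample set, blocks, averaging of samples 1 and 2, scaling, prior, probe set choice, a filter on dim genes, a stricter threshold and leaving out arrays.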

Additional observations from a re-analysis of the deposited data

Results flagged for a closer look

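FGF1 stood out because its difference after wounding was larger in heat shocked monolayers than in monolayers not heat shocked, by 1.62 on the log2 scale (SE 0.16; limma adjusted p = 0.00623). Its mean level was 5.47 in heat shocked and wounded monolayers, 3.62 in heat shocked, 3.58 in wounded and 3.34 in control monolayers, so 3 of the 4 groups lay under the floor of 4.77.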

How the results depend on the processing

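The 648 calls became 224 when samples 1 and 2 of each group, which share the mark S2, were averaged, and 303 at an adjusted p under 0.01. Of the called genes, 222 and 302 then had the same sign after heat shock. Leaving out 1 wounded or control array gave 306 to 589 calls, 303 to 571 of them with the same sign, 49 to 72 genes with at least 2-fold and 1 to 2 interaction calls. A replicate block gave 639 calls, 571 of them shared with the 648. Of 147 named genes it left 146 on their side of the threshold, and PLOD2 lost its call (adjusted p = 0.0705). The S2 and S3 mark as a block gave 728, and scaling 629 to 648. Interaction calls numbered 2 with a trended and robust prior, and 0 with samples averaged, with the mean over probe sets, or without dim genes, a set that FGF1 does not enter. Counts of genes with at least 2-fold were 46 with samples averaged, 42 with the mean over probe sets and 76 with the most variable probe set. With that last probe set SPRED1 and ADAM17 reversed, to -0.13 and -0.27. Why these values moved was not tested. Of 2785 values of 147 named genes under alternatives, 2484 kept their direction and side of the threshold, 292 lost the call, 7 gained it and 2 reversed. Scanner backgrounds and detection calls were not used here, so low levels have no measured limit. The array of heat shocked and wounded sample 2, whose interquartile range stood apart, entered through the spread, and without it 722 genes were called, 691 with the same sign after heat shock.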
